A study of Mus musculus with 16 samples.

Results

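The genes described here are the G1 cyclins, their kinases and the inhibitors that hold them back: 10 genes of the 49139 with a symbol in the count tables, chosen by name. They are the D-type cyclins Ccnd1, Ccnd2 and Ccnd3, the kinases Cdk4, Cdk6 and Cdk2, the inhibitors Cdkn1b (p27), Cdkn1c (p57) and Cdkn2c (p18), and the retinoblastoma gene Rb1. D-type cyclins bind CDK4 or CDK6 in response to growth signals, and these complexes start the phosphorylation of the RB protein. CDK2 with cyclin E completes it, E2F factors are released and the cell enters S phase. The INK4 protein p18 binds CDK4 and CDK6, whereas the CIP/KIP proteins p27 and p57 bind cyclin-CDK complexes and inhibit CDK2 above all.

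The cells were 4T07, a mouse mammary carcinoma line, transduced with GFP or with mCherry and injected 1:1 (250000 cells) into the mammary fat pad of C57BL/6J x Balb/cJ F1 females. Jedi T cells, whose receptor recognises a peptide of GFP, and which lacked PD-1 (PD1KO), were given by tail vein 7 or 15 days into tumour growth, and tumours were taken 7 days later. Sorted cells gave RNA libraries of GFP cells that survived in day 7 tumours (n = 3), mCherry cells of day 7 tumours (n = 3), GFP cells that survived in day 15 tumours (n = 3), mCherry cells of day 15 tumours (n = 3) and mCherry cells of control tumours with neither GFP cells nor Jedi T cells (n = 4). In the mixed tumours, mCherry cells were the untargeted partners of the GFP cells in the same tumour. No time of harvest is listed here for the control tumours, so their age cannot be set beside that of the mixed tumours. All groups carry a fluorescent reporter in the same line, with the animals' ages not given in the sources used here. GFP cells of a tumour without Jedi T cells were not analysed here, so the reporter and the T cell attack cannot be told apart. The labels place the day 7 libraries in sequencing run 1 and the day 15 and control libraries in run 2, so that day and run cannot be told apart either.

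The 16 libraries held 9412040 to 14535791 counts in day 7 GFP cells, 12942893 to 19970822 in day 7 mCherry cells, 21183324 to 24880582 in day 15 GFP cells, 21832170 to 22248031 in day 15 mCherry cells and 24367417 to 32808354 in control tumours. Summed markers of host macrophages and endothelium were lower in GFP cells than in their mCherry partners. On day 7, 12 of 12 macrophage and 8 of 8 endothelial genes tested were called lower (9.33% of all genes). On day 15, 6 of 10 macrophage and 3 of 10 endothelial genes were (10.6% of all genes). The macrophage gene Cd68 went the other way there (log2 0.67, adjusted p = 0.0617, edgeR). Macrophage markers (12 genes) summed to 102 to 165 CPM (counts scaled to a common library total) in day 7 GFP cells, against 596 to 844 CPM in day 7 mCherry cells, and to 55.5 to 73.3 CPM in day 15 GFP cells, against 89.5 to 111 CPM in day 15 mCherry cells. Endothelial markers (10 genes) summed to 7.54 to 8.73 CPM in day 7 GFP cells, against 29.1 to 59.5 CPM in day 7 mCherry cells. They summed to 13.5 to 16.6 CPM in day 15 GFP cells, against 17.5 to 40.5 CPM in day 15 mCherry cells, and none of them was at 0 throughout a group. T and NK cell markers (10 genes) summed to at most 6.27 CPM in any library, and 5 of them (Cd3d, Cd4, Cd8b1, Gzmb and Klrb1c) were at 0 in all day 15 mCherry libraries. Neutrophil markers (6 genes) summed to at most 39.1 CPM, B cell markers (4 genes) to 2.12 CPM and adipocyte markers (4 genes) to 46.1 CPM. Of those tested, 1 of 3 neutrophil and 1 of 1 adipocyte genes were called lower in GFP cells on day 7. On day 15, 2 of 3 neutrophil and 1 of 4 adipocyte genes were, and no gene of these 3 lists was called higher. Fibroblast and pericyte markers (7 genes) summed to 739 to 817 CPM in day 7 GFP cells, against 639 to 764 CPM in day 7 mCherry cells, and to 1350 to 1530 CPM in day 15 GFP cells, against 804 to 1030 CPM in day 15 mCherry cells. Dcn and Pdgfra made up most of that sum. Of the 7 genes tested on day 15, Dcn rose (log2 1.25), Lum (log2 −1.76) and Pdpn (log2 −1.22) fell, and the median log2 fold change was −0.303, and on day 7 none of 5 tested passed (edgeR; Dcn had the smallest adjusted p, 0.102). Immediate early genes, which tissue dissociation can induce, summed to 4510 to 6190 CPM in day 7 GFP cells, against 4470 to 5760 CPM in day 7 mCherry cells, and to 12700 to 13700 CPM in day 15 GFP cells, against 9890 to 13000 CPM in day 15 mCherry cells. On day 15, 4 of these 8 rose (Dusp1 by a log2 of 0.56, Fos by 0.39, Ier2 and Fosb by 0.36), where 8.94% of all genes did. Egr1 fell (log2 −0.35), where 10.6% of all genes did, and the median was 0.258, against 0.0065 over all genes. On day 7, 1 of the 8 fell, Egr1 (log2 −0.37), where 9.33% of all genes did, and 0 rose (median 0.11, against −0.0037). The part of these markers in the results was not tested. Vim, Fn1 and Sparc, high in this line, summed to 7480 to 8400 CPM in day 7 GFP cells, against 7370 to 9390 CPM in day 7 mCherry cells. In run 2 they summed to 23400 to 28000 CPM in day 15 GFP cells, 25600 to 26200 CPM in day 15 mCherry cells and 21600 to 32300 CPM in controls. Sparc was called lower in GFP cells on both days (log2 −0.53 on day 7 and −0.45 on day 15), and Vim and Fn1 on neither. The 5 epithelial genes summed to 450 to 656 CPM in day 7 GFP cells, against 989 to 1390 CPM in day 7 mCherry cells, and to 458 to 546 CPM in day 15 GFP cells, against 625 to 929 CPM in day 15 mCherry cells. Among them the keratins Krt18 (log2 −1.72 on day 7 and −0.98 on day 15) and Krt8 (−0.96 on day 7 and −0.55 on day 15) fell, and Cdh1, which encodes E-cadherin, rose (1.92 on day 7 and 1.36 on day 15). Cell cycle genes were lower in GFP cells: of 26 genes of S and G2/M phase, 24 fell on day 7, where 9.33% of all genes did (median log2 fold change −0.75, against −0.0037 over all genes) and 26 on day 15, where 10.6% of all genes did (median −1, against 0.0065). In bulk RNA, fewer cells of a type and less RNA per cell cannot be told apart.

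Upstream sequence was available for 6 of the 10 genes, and was read since E2F factors, the target of the pathway, bind some genes of the cell cycle. It is shown for Cdkn2c and Ccnd3, which passed the test between GFP and mCherry cells on 1 day or both. Cdk2 is shown for its motif match, and Cdk6, which came as close to passing on day 15, is not shown. The 250 bases before the start, from RefSeq on GRCm38.p6 and read 5′ to 3′ on the gene's own strand, were searched on both strands for TTTCCCGC, TTTCGCGC, TTTGCCGC and TTTGGCGC. These words are spellings of a common E2F motif and none contains another. Capitals mark a match.
Cdk2, chr10:128705052-128705301, minus strand: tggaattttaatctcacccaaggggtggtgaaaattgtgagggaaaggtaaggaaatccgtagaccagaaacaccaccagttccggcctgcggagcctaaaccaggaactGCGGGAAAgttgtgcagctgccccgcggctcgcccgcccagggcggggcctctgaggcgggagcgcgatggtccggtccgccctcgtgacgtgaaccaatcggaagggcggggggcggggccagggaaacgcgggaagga
Cdkn2c, first start, chr4:109666757-109667006, minus strand: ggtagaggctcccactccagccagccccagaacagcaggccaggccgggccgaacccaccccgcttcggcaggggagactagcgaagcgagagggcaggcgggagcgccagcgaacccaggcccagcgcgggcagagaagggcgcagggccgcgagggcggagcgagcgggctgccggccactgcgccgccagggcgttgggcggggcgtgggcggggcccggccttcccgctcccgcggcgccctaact
Cdkn2c, second start, chr4:109665373-109665622, minus strand: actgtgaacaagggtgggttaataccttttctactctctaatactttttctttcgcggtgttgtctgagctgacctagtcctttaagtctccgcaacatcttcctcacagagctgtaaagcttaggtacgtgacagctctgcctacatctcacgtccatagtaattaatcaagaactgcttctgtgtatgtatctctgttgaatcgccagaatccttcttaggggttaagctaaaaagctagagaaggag
Ccnd3, first start, chr17:47504801-47505050, plus strand: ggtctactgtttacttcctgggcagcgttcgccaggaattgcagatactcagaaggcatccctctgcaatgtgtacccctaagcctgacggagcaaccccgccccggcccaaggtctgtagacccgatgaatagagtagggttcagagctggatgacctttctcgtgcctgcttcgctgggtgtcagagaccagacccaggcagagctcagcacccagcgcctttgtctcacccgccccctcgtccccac
Ccnd3, second start, chr17:47593217-47593466, plus strand: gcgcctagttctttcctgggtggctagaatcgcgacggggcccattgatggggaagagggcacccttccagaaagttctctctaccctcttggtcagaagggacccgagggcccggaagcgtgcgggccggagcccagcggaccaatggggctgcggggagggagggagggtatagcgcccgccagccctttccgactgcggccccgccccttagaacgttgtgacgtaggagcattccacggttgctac
Cdk2 was the 1 member of 6 with a match, GCGGGAAA, its first base 140 bases before the start. Of 32851 promoters in the table, 1.86% held such a word. The match is a description of the letters. The first Cdkn2c start lies in a stretch of 77.2% G and C, the second in one of 42.8%. Cdk4, Cdk6 and Cdkn1b had entries without a match, and Ccnd1, Ccnd2, Cdkn1c and Rb1 are named only.

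**Figure D1:**
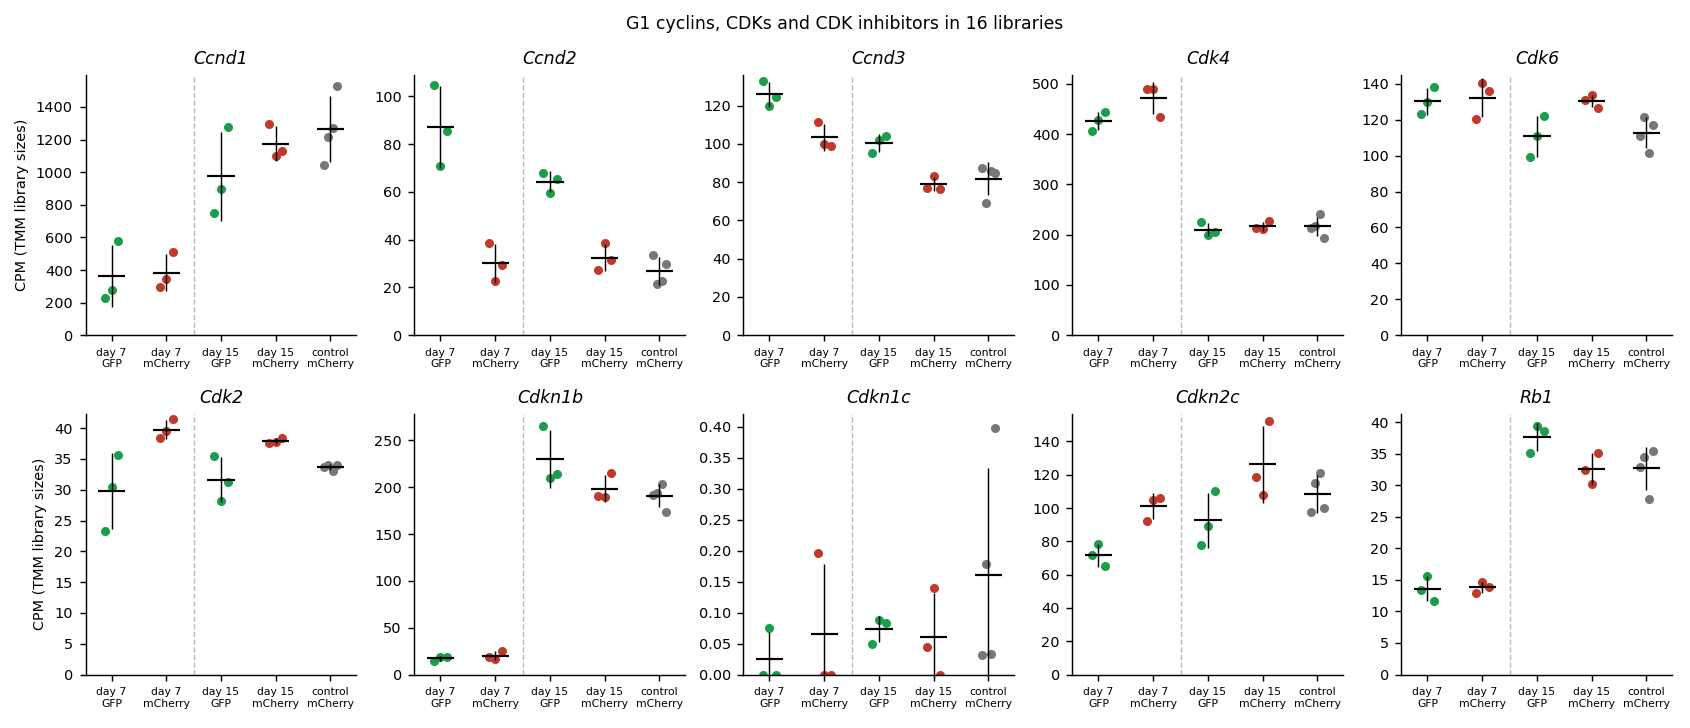
Level of each gene in the 16 libraries, in CPM on TMM library sizes (linear axes from 0), by group, with the mean (bar) and SD (line). The dashed line parts run 1 from run 2. Ccnd2 lies at 59.6 to 105 CPM in GFP cells of either day and at or below 38.8 CPM in every mCherry library.

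Ccnd2 was the member with the clearest difference: its RNA was higher in surviving GFP cells than in their mCherry partners in each of 6 tumours. Ccnd2 encodes cyclin D2, which activates CDK4 and CDK6. The gene (ENSMUSG00000000184) lies on chromosome 6 at 127125162 to 127152193, minus strand, on GRCm38. On day 7 it had 105, 71.1 and 85.6 CPM in GFP cells of tumours 2, 3 and 4, against 38.8, 22.5 and 29.2 CPM in mCherry cells of the same tumours. The groups did not overlap, and the lowest GFP library stood well above the highest mCherry library. The fold change was 2.95 (log2 1.56, SE 0.11, adjusted p = 1.731e-05, edgeR quasi-likelihood test, Benjamini-Hochberg over all genes). On day 15 it had 68.0, 59.6 and 65.6 CPM in GFP cells of tumours 1, 2 and 3, against 27.2, 38.7 and 31.7 CPM in their mCherry partners. Again no library of one colour reached the other colour. The fold change was 1.99 (log2 1.00, SE 0.13, adjusted p = 5.974e-04, edgeR). Control mCherry tumours had 33.4, 21.5, 22.8 and 30.0 CPM, all below every GFP library. Day 15 GFP cells exceeded the controls 2.39-fold (log2 1.26, SE 0.15, adjusted p = 0.00672, edgeR), and day 15 mCherry cells differed from the controls by a log2 of 0.27 (SE 0.18, adjusted p = 0.4996). Macrophage and endothelial markers were lower in the same GFP libraries, at the sums given above. Controls had 78.8 to 201 CPM of macrophage and 18.5 to 89.6 CPM of endothelial markers, above the day 15 GFP cells. Of the genes tested, 9 of 12 and 1 of 10 were called lower in GFP cells than in controls (6.97% of all genes). Fibroblast and pericyte markers summed to 771 to 1200 CPM in controls, against 1350 to 1530 CPM in day 15 GFP cells. The part of these markers in the Ccnd2 result was not tested. Antisense genes that overlap Ccnd2 held at most 2 counts in any library, at most 0.282% of the Ccnd2 counts.

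Within tumours, GFP cells exceeded mCherry cells in Ccnd2 by a log2 of 1.32, 0.62 and 1.05 on day 15, against 1.43, 1.65 and 1.55 on day 7. All 3 day 7 differences were above all 3 of day 15, but the share of all genes so separated was not counted. The difference between the days was −0.57 on the log2 scale (SE 0.18), with an unadjusted p of 0.00736 and an adjusted p of 0.277 in the edgeR fit of the 12 mixed-tumour libraries. It did not pass the threshold, nor did that of any other member. Of all genes, 0.211% passed in this comparison. Next to Ccnd2 came Cdkn1b, with a difference of 0.41 (SE 0.18, adjusted p = 0.448).

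Ccnd3 encodes cyclin D3, another partner of CDK4 and CDK6, and its RNA was also higher in GFP cells, by a smaller amount. On day 15 it had 95.1, 102 and 104 CPM in GFP cells, against 77.0, 83.1 and 76.4 CPM in mCherry cells. Every GFP library lay above every mCherry library. The rise was 1.28-fold (log2 0.35, SE 0.082, adjusted p = 0.0145, edgeR), and without tumour 3 the adjusted p was 0.106. On day 7 it had 133, 120 and 125 CPM in GFP cells, against 112, 99.8 and 98.7 CPM in mCherry cells. These groups did not overlap either, but the log2 fold change of 0.30 (SE 0.094) did not pass (adjusted p = 0.0513, edgeR). Without tumour 4 it was 0.28 with an adjusted p of 0.0203, and without tumour 3 it was 0.32 with an adjusted p of 0.254. Control tumours had 87.6, 69.0, 86.0 and 84.5 CPM, below all day 15 GFP libraries, at a log2 fold change of 0.30 (SE 0.093, adjusted p = 0.0640, edgeR). Bysl, which overlaps Ccnd3 by 361 bases on the opposite strand, held counts equal to 20.6% to 41.8% of those of Ccnd3. With the use of strand in counting not given in the sources used here, reads of the overlap cannot be told apart, and the Ccnd3 counts are uncertain to that extent.

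Ccnd1 encodes cyclin D1, the D-type cyclin most abundant in these cells, and did not pass the test in any of the comparisons. On day 7 it had 231, 276 and 579 CPM in GFP cells, against 294, 347 and 514 CPM in mCherry cells. Tumours 2 and 3 had less Ccnd1 in GFP cells, and tumour 4 had more. The log2 fold change was −0.15 (SE 0.12, adjusted p = 0.433, edgeR). On day 15 it had 749, 897 and 1279 CPM in GFP cells, against 1297, 1099 and 1130 CPM in mCherry cells. Tumour 3 went against tumours 1 and 2, and the log2 fold change was −0.30 (SE 0.15, adjusted p = 0.196). Without day 7 tumour 4 the log2 fold change on day 7 was −0.32 (adjusted p = 0.00574), whereas without tumour 2 it was −0.06 (adjusted p = 0.899) and without tumour 3 also −0.06 (adjusted p = 0.892, edgeR). The day 15 value was −0.54 without tumour 3 (adjusted p = 0.0470) and −0.06 without tumour 1 (adjusted p = 0.746). With no filter on low counts, Ccnd1 had an adjusted p of 0.00593 on day 15. Control tumours had 1044, 1216, 1271 and 1531 CPM. Day 15 GFP cells differed from them by a log2 of −0.38 (SE 0.19, adjusted p = 0.204), with 1 of 3 GFP libraries inside the range of the controls. LTO1, on the opposite strand over 1771 bases of Ccnd1, held counts equal to 1.55% to 11.7% of those of Ccnd1. Reads of this overlap cannot be told apart either.

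Per kilobase of exon, Ccnd1 made up most of the D-type cyclin RNA in every library. The length used is the union of all annotated exons and not that of the transcript expressed, so levels between genes are approximate. Reads of the overlaps of Ccnd1 and Ccnd3 with other genes were not taken out. The Ccnd2 share of the 3 D-type cyclins was 14.8%, 9.46% and 6.22% in day 7 GFP cells, against 5.20%, 2.74% and 2.52% in day 7 mCherry cells. It was 4.08%, 3.04% and 2.399% in day 15 GFP cells, against 1.01%, 1.67% and 1.34% in day 15 mCherry cells. The controls had 0.853% to 1.51%. In every tumour the GFP cells had the larger Ccnd2 share. Cyclin D1 RNA stood at 4.39 to 13.5 times that of cyclin D2 in day 7 GFP cells, against 15.2 to 35.1 times in day 7 mCherry cells. It stood at 22.0 to 39.0 times in day 15 GFP cells, 56.7 to 95.3 times in day 15 mCherry cells and 62.5 to 113 times in controls.

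**Figure D2:**
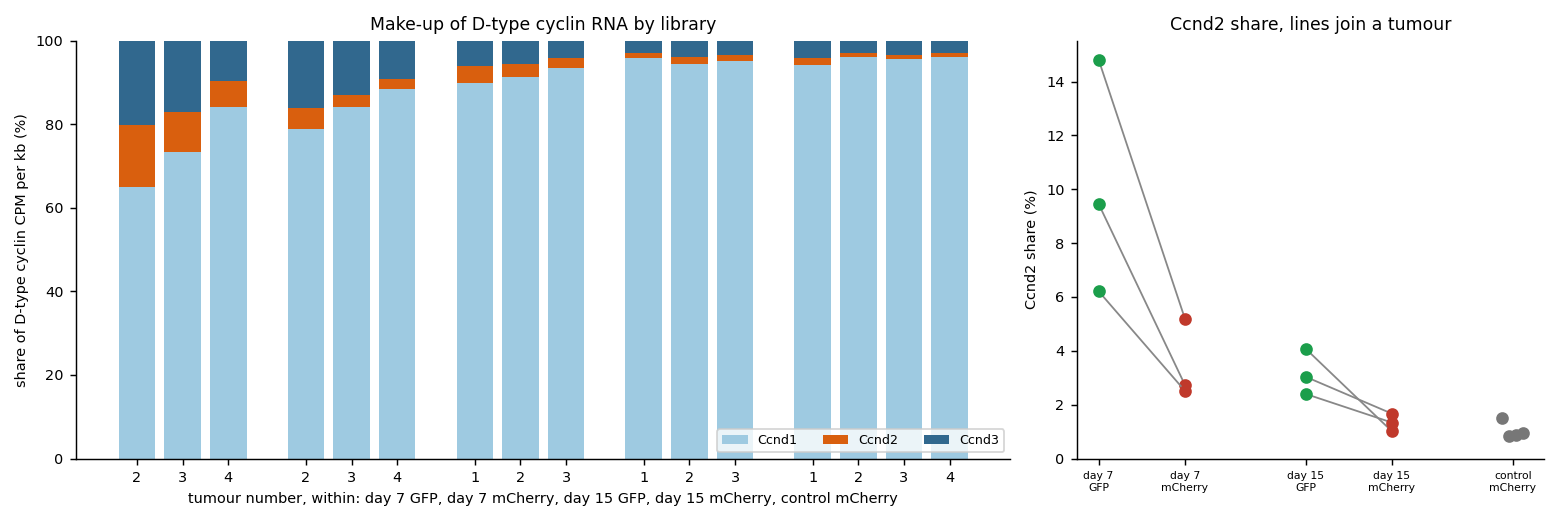
Left, shares of Ccnd1, Ccnd2 and Ccnd3 in their summed CPM per kilobase of exon (%), 1 bar per library. Right, the Ccnd2 share (%), with lines joining GFP and mCherry cells of a tumour. In all 6 tumours the line falls from GFP to mCherry, and controls sit between 0.853% and 1.51%.

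The kinases showed no change that passed the test between GFP and mCherry cells. Cdk2, whose kinase acts with cyclins E and A, had 23.3, 30.5 and 35.6 CPM in day 7 GFP cells, against 38.3, 39.5 and 41.4 CPM in mCherry cells. It had 35.5, 28.2 and 31.2 CPM in day 15 GFP cells, against 37.6, 37.8 and 38.4 CPM in mCherry cells. On both days each GFP library lay below each mCherry library, and yet neither log2 fold change passed: −0.41 on day 7 (SE 0.13, adjusted p = 0.0535) and −0.27 on day 15 (SE 0.10, adjusted p = 0.0879, edgeR). On day 7 the log2 fold change was −0.52 without tumour 4 (adjusted p = 0.00609) and −0.28 without tumour 2 (adjusted p = 0.434). The day 15 value was −0.36 without tumour 1 (adjusted p = 0.0193) and −0.18 without tumour 2 (adjusted p = 0.464). Controls, at 33.04 to 33.97 CPM, lay below the day 15 mCherry libraries, with a log2 fold change of 0.17 for mCherry cells over controls (SE 0.064, adjusted p = 0.307).

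Cdk6, a kinase of the D-type cyclins, had 123, 130 and 138 CPM in day 7 GFP cells, against 120, 141 and 136 CPM in mCherry cells, and the ranges overlapped. On day 15 it had 99.5, 111 and 122 CPM in GFP cells, against 131, 134 and 127 CPM in mCherry cells, without overlap. The log2 fold changes were −0.0034 (SE 0.098, adjusted p = 0.987) on day 7 and −0.24 (SE 0.088, adjusted p = 0.0818, edgeR) on day 15. Day 15 mCherry cells also lay above the controls, at 102 to 122 CPM, by a log2 of 0.21 (SE 0.075, adjusted p = 0.291). Cdk4, the other kinase of the D-type cyclins, averaged 426 ± 18.4 CPM in day 7 GFP cells and 471 ± 31.6 CPM in mCherry cells, and 210 ± 12.8 CPM in day 15 GFP cells and 217 ± 8.85 CPM in mCherry cells (SD, n = 3 each). Its log2 fold changes were −0.13 on day 7 (SE 0.10, adjusted p = 0.431) and −0.05 on day 15 (SE 0.082, adjusted p = 0.730, edgeR). Without tumour 4 the day 7 value was −0.21 (adjusted p = 0.0464), and without tumour 2 it was −0.07 (adjusted p = 0.886). Tspan31, on the opposite strand over 641 bases of Cdk4, held counts equal to 21.9% to 31.7% of those of Cdk4.

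Among the inhibitors, Cdkn2c (p18) fell in GFP cells on both days. It lies on chromosome 4 at 109660876 to 109667189, minus strand, and overlaps no other annotated gene. On day 7 it had 71.7, 78.7 and 64.9 CPM in GFP cells, against 92.4, 105 and 106 CPM in mCherry cells. The colours did not overlap, and the level was 1.40-fold lower (log2 −0.48, SE 0.11, adjusted p = 0.0129, edgeR). On day 15 it had 77.8, 89.3 and 111 CPM in GFP cells of tumours 1, 2 and 3, against 119, 108 and 152 CPM in mCherry cells. GFP cells of tumour 3 exceeded mCherry cells of tumour 2, but within each tumour the GFP cells were lower, by a log2 of −0.61, −0.27 and −0.46. The level was 1.36-fold lower (log2 −0.45, SE 0.089, adjusted p = 0.00674, edgeR), and without the tumour block the adjusted p was 0.0818. Without tumour 3, the day 7 fall had an adjusted p of 0.0818 as well. Controls had 97.6, 115, 121 and 100 CPM, and day 15 GFP cells differed from them by a log2 of −0.23 (SE 0.13, adjusted p = 0.248). Macrophage markers were lower in the same GFP libraries, at the sums given above, and their part in the Cdkn2c result was not tested.

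Cdkn1b (p27) did not pass the test between the colours. On day 15 it had 266, 210 and 214 CPM in GFP cells, against 191, 190 and 215 CPM in mCherry cells and 191, 194, 204 and 174 CPM in controls. GFP cells of tumour 1 were the highest, tumour 3 showed no gap, and every GFP library lay above every control. The log2 fold changes were 0.21 against mCherry cells (SE 0.099, adjusted p = 0.176) and 0.27 against controls (SE 0.10, adjusted p = 0.105, edgeR). On day 7 the levels were 14.5, 18.3 and 18.8 CPM in GFP cells, against 18.2, 16.9 and 25.4 CPM in mCherry cells, with a log2 fold change of −0.20 (SE 0.16, adjusted p = 0.433). Cdkn1c (p57) was at or near the floor: it had 0, 1 and 0 counts in day 7 GFP cells, against 4, 0 and 0 in mCherry cells, and 1, 2 and 2 counts in day 15 GFP cells, against 1, 3 and 0 in mCherry cells and 1, 6, 1 and 10 in controls. It entered no test. A count of 0 in day 7 GFP cells allows up to 0.308 CPM in tumour 2 and 0.196 CPM in tumour 4, from 3 counts and counting error only.

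Rb1, whose protein the kinases phosphorylate, averaged 13.6 ± 1.97 CPM in day 7 GFP cells and 13.8 ± 0.915 CPM in mCherry cells, and 37.7 ± 2.26 CPM in day 15 GFP cells and 32.6 ± 2.51 CPM in mCherry cells (SD, n = 3 each). The log2 fold changes were −0.01 on day 7 (SE 0.17, adjusted p = 0.966) and 0.21 on day 15 (SE 0.098, adjusted p = 0.165, edgeR). Rb1 was higher in GFP cells of each day 15 tumour, by a log2 of 0.11, 0.38 and 0.13. Rcbtb2 and Lpar6 overlap Rb1 on the opposite strand and held counts equal to 144% to 879% and 45.5% to 221% of those of Rb1, so its counts are uncertain.

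Set against all genes, 2 of the 9 members tested passed on day 7, Ccnd2 higher and Cdkn2c lower, where 18.2% of all genes passed. On day 15, 3 of 9 passed, Ccnd2 and Ccnd3 higher and Cdkn2c lower, where 19.5% of all genes passed. With 9 genes, these counts do not set the members apart from the background. At an unadjusted p below 0.05 there were 4 of 9 members on day 7 (32.1% of all genes), 5 on day 15 (33.3%) and 2 in the difference between the days (10.2%). The sign was the same in all tumours for 4 members on day 7 (52% of all genes) and 6 on day 15 (54.9%). In day 15 GFP cells against controls 1 of 9 passed, Ccnd2, where 13.1% of all genes did (6.09% higher and 6.97% lower). At an unadjusted p below 0.05 there were 3 members, and 32.2% of all genes. In day 15 mCherry cells against controls 0 of 9 passed in the edgeR test, where 0% of all genes did. There, Cdk6 and Cdk2 had an unadjusted p below 0.05, as had 14.2% of all genes, and DESeq2 called 262 genes, none of them a member. Groups without overlap were found for 4 of 9 members on day 7 (34.1% of all genes), 4 of 9 on day 15 (36.3%), 3 of 9 in GFP cells against controls (29.9%) and 2 of 9 in mCherry cells against controls (14.5%). The authors' deposited table gives log2 fold changes for Ccnd2 of 1.57 on day 7 (adjusted p = 4.535e-24, DESeq2) and 1.00 on day 15 (adjusted p = 9.387e-10, DESeq2). It calls Cdkn2c on both days and Ccnd3 on day 15, and no other member.

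**Figure D3:**
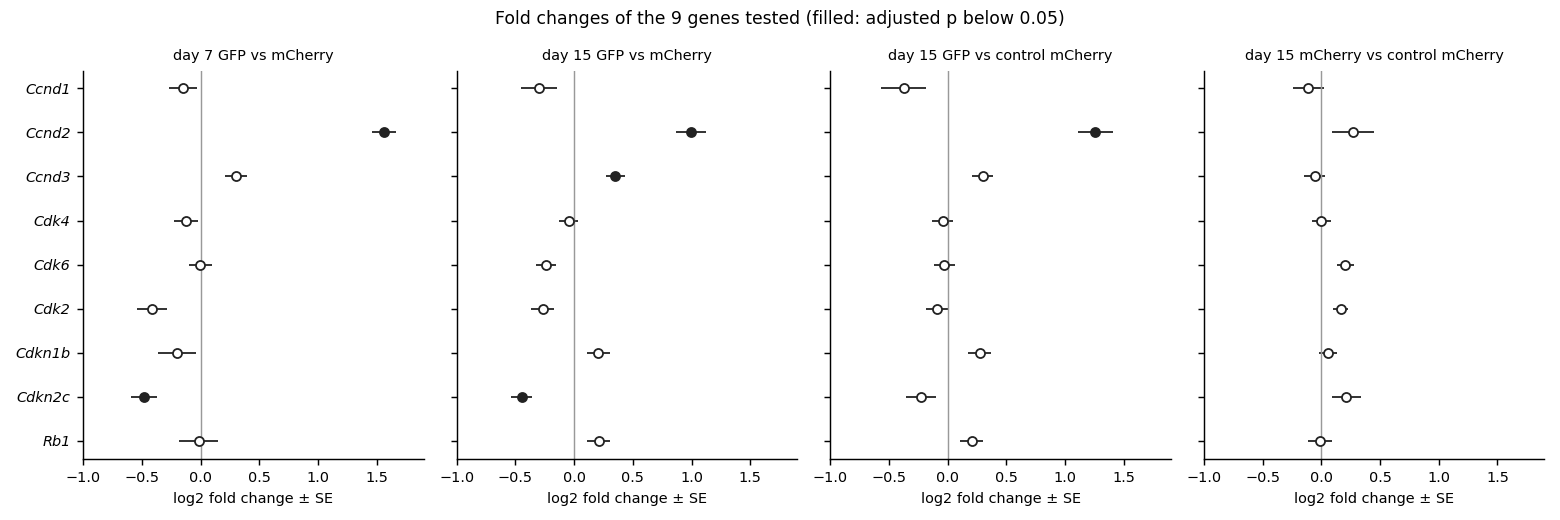
Log2 fold change (horizontal axis) with SE (line) of the 9 genes tested in each comparison, edgeR. Filled points have an adjusted p below 0.05: Ccnd2 in 3 panels, Cdkn2c on both days against mCherry cells, and Ccnd3 on day 15. In the panel of mCherry cells against controls no point is filled.

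Between the days, levels of several members differed by more than between the colours. Cdkn1b averaged 198 ± 14.0 CPM in day 15 mCherry cells and 20.2 ± 4.61 CPM in day 7 mCherry cells (SD, n = 3 each), a log2 difference of 3.31 that 5.56% of 17097 genes matched or passed in size. Ccnd1 was higher by 1.65 and Rb1 by 1.23 in day 15 mCherry cells, and Cdk4 lower by 1.12. The remaining members differed by less than 0.4. These differences stand beside a wide background, as 44.1% of all genes differed by over 2-fold, and they were not tested, since day 15 was sequenced in run 2 and day 7 in run 1. The controls, also of run 2, had Cdkn1b at 191 ± 12.4 CPM (SD, n = 4), against 198 CPM in day 15 mCherry cells. They averaged 1266 CPM of Ccnd1, 216 CPM of Cdk4 and 32.7 CPM of Rb1, against 1175, 217 and 32.6 CPM in day 15 mCherry cells.

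**Figure D4:**
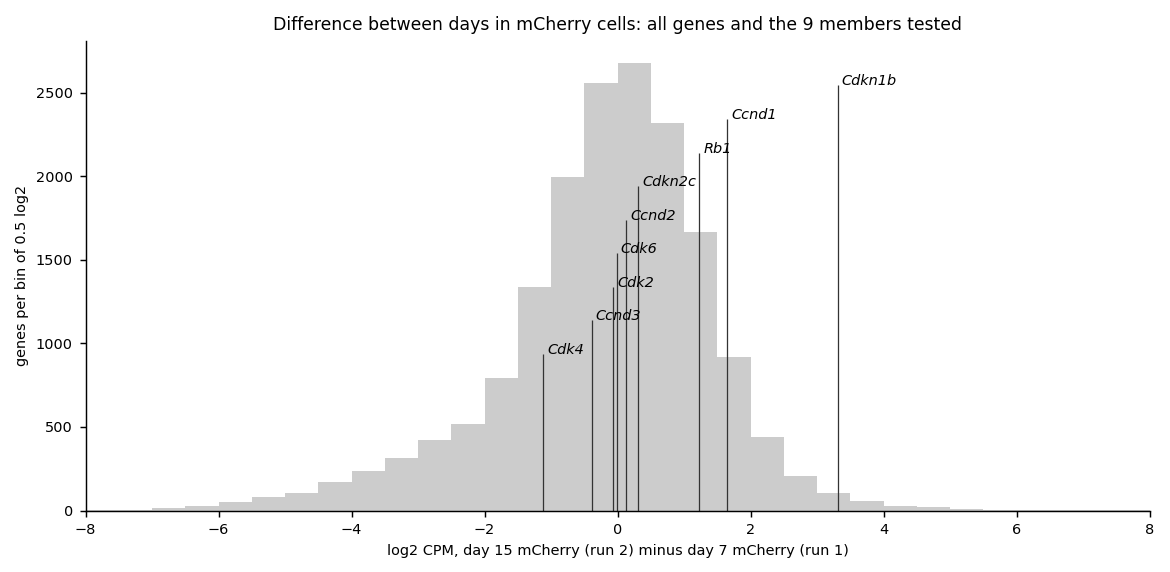
Difference in log2 CPM, day 15 mCherry (run 2) minus day 7 mCherry (run 1), as a histogram over 17097 genes in bins of 0.5, with lines marking the 9 members tested. Cdkn1b lies at 3.31, at the far right, and Cdk6, Cdk2 and Ccnd2 lie near the centre.

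Ranked per kilobase of exon by mean level, Ccnd1 came first in run 2, at 207 CPM per kb in day 15 GFP cells, 250 in day 15 mCherry cells and 269 in controls. Cdk4 followed at 64.7 CPM per kb in day 15 GFP cells, 66.8 in day 15 mCherry cells and 66.6 in controls. In run 1 the order was turned: Cdk4 led at 131 CPM per kb in day 7 GFP cells and 145 in mCherry cells, and Ccnd1 followed at 76.9 in day 7 GFP cells and 81.7 in mCherry cells. Cdkn2c came next, or next but for Cdkn1b, in every group, at 26.7 to 47.0 CPM per kb. Cdk2 and Rb1 lay at 2.26 to 6.39 CPM per kb over all groups. Cdkn1c was last in every group.

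Other genes of the G1/S transition gave a mixed picture around the members. Of 26 genes listed, 24 were tested. On day 7, 3 were called higher (8.89% of all genes) and 2 lower (9.33%), with a median log2 fold change of −0.0371 against −0.0037 over all genes. E2f4 rose, at 61.5 to 70.7 CPM in GFP cells and 36.8 to 41.5 CPM in mCherry cells (log2 0.78, adjusted p = 0.00130), as did Myc, a driver of growth, at 134 to 145 CPM in GFP cells and 79.2 to 93.7 CPM in mCherry cells (log2 0.73, adjusted p = 8.526e-04, edgeR). Cdkn1a, which encodes p21, also rose (log2 0.45, adjusted p = 0.0298). Skp2, part of the ligase that marks p27 for degradation, fell (log2 −0.90, adjusted p = 0.00366), as did Cdkn2d, which encodes p19 of the INK4 family (log2 −0.68, adjusted p = 0.00894). The cyclin E genes Ccne1 and Ccne2 had log2 fold changes of −0.35 (adjusted p = 0.206) and −0.78 (adjusted p = 0.0544), and E2f1 had 0.01 (adjusted p = 0.957).

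On day 15, 2 of the 24 were called higher (8.94% of all genes) and 8 lower (10.6%), with a median of −0.234 against 0.0065 over all genes. Rbl2, the RB relative p130, rose, at 30.1 to 36.8 CPM in GFP cells and 20.4 to 24.9 CPM in mCherry cells (log2 0.55, adjusted p = 0.00557, edgeR), and so did Cdkn1a, at 28.8 to 29.9 CPM in GFP cells and 15 to 23 CPM in mCherry cells (log2 0.68, adjusted p = 0.00588). Skp2 fell to 27.3 to 28.2 CPM in GFP cells, against 37.7 to 43.5 CPM in mCherry cells (log2 −0.56, adjusted p = 0.00288). Its partner in binding p27, Cks1b, fell (log2 −0.49, adjusted p = 0.00355), and so did Ccne1 (log2 −0.80, adjusted p = 0.0163) and Ccne2 (log2 −0.61, adjusted p = 0.0274, edgeR). E2f7, E2f8, Tfdp2 and Rbl1 were the other genes called lower. E2f1 had −0.25 (adjusted p = 0.0983) and Myc 0.26 (adjusted p = 0.0811). In day 15 GFP cells against controls, 1 of the 24 was called higher, Rbl2 (6.09% of all genes), and 2 lower, Skp2 and Tfdp2 (6.97%). None of the 24 passed in mCherry cells against controls (edgeR), or in the difference between the days.

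**Figure D5:**
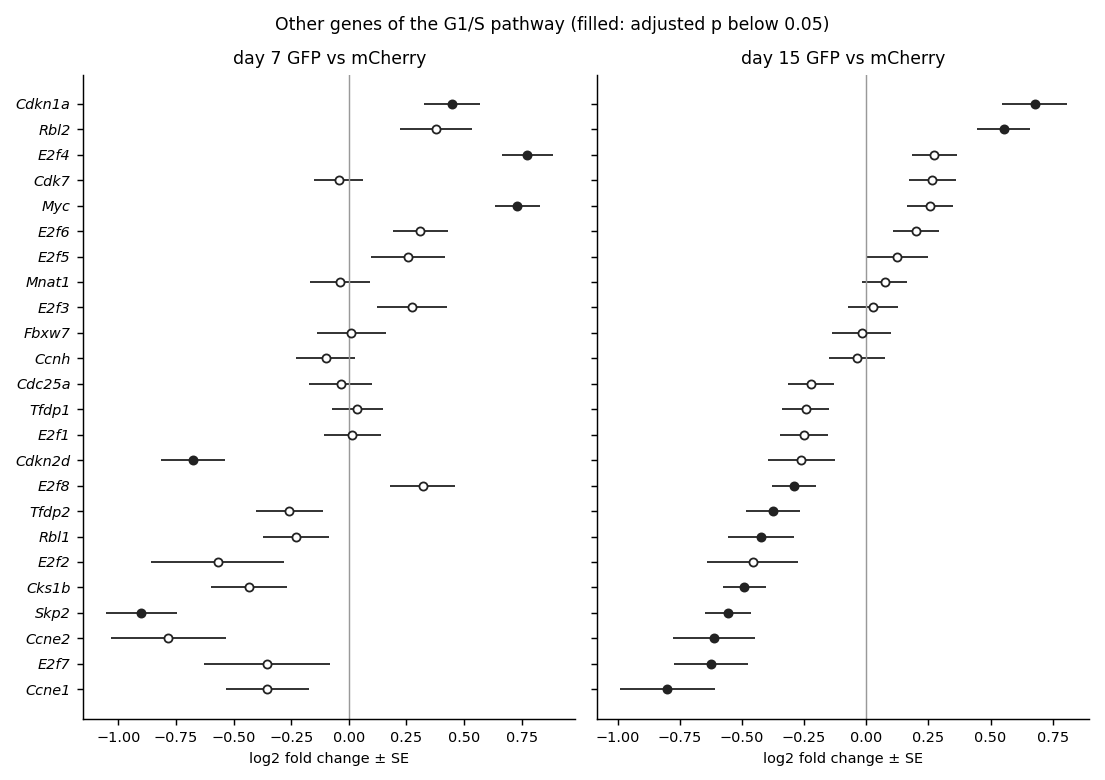
Log2 fold change with SE of 24 other genes of the G1/S transition, GFP over mCherry cells of the same tumours, on day 7 (left) and day 15 (right), ordered by the day 15 value. Filled points have an adjusted p below 0.05 (edgeR): 3 higher and 2 lower on day 7, 2 higher and 8 lower on day 15.

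Proliferation genes were read in the same libraries as the members, as RNA only. Mki67 fell to 63.3 to 178 CPM in day 7 GFP cells, against 151 to 233 CPM in mCherry cells (log2 −0.89, adjusted p = 0.00397), and to 131 to 203 CPM in day 15 GFP cells, against 301 to 470 CPM in mCherry cells (log2 −1.22, adjusted p = 2.281e-04, edgeR). Mcm4, of the replicative helicase, had log2 fold changes of −0.76 on day 7 and −1.01 on day 15, and Plk1, a mitotic kinase, −1.20 on day 7 and −1.34 on day 15, and all passed. The kinase genes Cdk4, Cdk6 and Cdk2, measured in the same libraries, had log2 fold changes of −0.41 to −0.0034. In day 15 GFP cells against controls, 17 of 26 proliferation genes fell, where 6.97% of all genes did. Their median log2 fold change was −0.573, against −0.0022 over all genes.

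After centring each run on its mean, the genes whose pattern over the 16 libraries was most like that of Ccnd2 were Gm20559 and Gadd45b, a gene induced by stress, with root mean square differences of 0.237 and 0.254 in log2 CPM (Ccnd2 itself varied by 0.681). For Ccnd1, which varied by 0.367, they were Atad5 and Ccp110, at 0.195 and 0.199. For Cdkn2c, which varied by 0.258, they were Sema6b and Sdhaf4, at 0.120 and 0.133. These were picked from 11078 genes by likeness alone.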

How the data were processed

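RNA was measured in 16 libraries. The deposited raw counts come from GENEWIZ, per the labels' protocols, and the build was mm10, per the submitters' processing notes. An aligner, an annotation and the CD45 gate were not given in the sources used here. DESeq2 tables that the authors deposited hold log2 fold changes and p-values, per the file headers. Of 49315 rows, 176 have no symbol (at most 0.011% of counts) and were left out.

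Genes passing edgeR's filterByExpr (minimum count 10, total 15) were tested in R 4.3.3 by the quasi-likelihood F-test of edgeR 4.0.16 on TMM library sizes, adjusted by Benjamini and Hochberg over all genes tested (threshold 0.05). An SE is the size of a log2 fold change divided by the root of F. GFP and mCherry cells were compared with tumour as a block, and day 15 groups with controls without one. The scripts were tested on simulated data. CPM use TMM over the 16 libraries, log2 CPM a prior count of 2, and levels per kilobase the exon union of GENCODE M21 (GRCm38).

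Day 7 columns are numbered 2 to 4 and labels 1 to 3, so they were matched as groups. Tumour numbers are those of the columns. On day 15 the labels give both colours of a tumour 1 number. On day 7, residuals correlated by 0.110 to 0.158 between libraries of a shared number and by −0.126 to 0.0067 otherwise. On day 15 the correlations were 0.0901 to 0.232 and −0.183 to 0.0186. Replicate libraries differed beyond counting error (chi-square per degree of freedom 4.94 to 80.4). The labels give the libraries of a group different tumour numbers. In tests with tumour as a block, p-values thus measure how the GFP minus mCherry difference varies between tumours. In comparisons with controls, which had no block, they measure the spread of levels between tumours.

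All members are named. Of the other G1/S genes, the rule named the 3 of smallest p in each within-tumour comparison with Ccne1, Ccne2, Cdkn1a, E2f1 and Myc; Cdkn2d, Tfdp2, E2f7, E2f8, Rbl1 and the single marker genes outside it were named after their values were seen. It also named Mki67, Mcm4 and Plk1, the 2 most abundant markers of other cell types, given here as sums over each list, and the 2 genes of most like pattern (smallest root mean square difference) for the 3 most variable members. Members and lists were chosen with earlier results of these data known. Alternatives were DESeq2 1.42.0, its size factors, other filters, the block, a joint fit and leaving out each tumour or library.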

Additional observations from a re-analysis of the deposited data

Results flagged for a closer look

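Ccnd3 in the control mCherry tumours has 1 library apart from the others: control 2 had 69.0 CPM, against 84.5 to 87.6 CPM in the other 3. The gap to the nearest of the others is 0.835 of the group's whole range. Chance sets about 1 in 20 groups apart in this way. The log2 fold change of Ccnd3 in day 15 GFP cells over controls, 0.30, includes this library.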

How the results depend on the processing

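Ccnd2 was called higher in GFP cells in all 8 alternatives on day 7 (log2 1.52 to 1.62), all 8 on day 15 (0.83 to 1.19) and all 12 against controls (1.16 to 1.38). Its difference between the days was called in 0 of 11 (adjusted p 0.106 to 0.671). With no filter, 2 members were called lower on day 7 (Cdk2 joined, adjusted p = 0.0405) and 2 on day 15 (Ccnd1 joined, adjusted p = 0.00593), and 354 genes differed between the days. With a minimum count of 50, 2 were called higher (Ccnd3 joined) and 2 lower (Cdk2 joined) on day 7, and 14 genes between the days. Without the replicate block, 0 members were called lower on day 15 and 2 genes differed between the days. DESeq2 called 153 genes between the days, 2953 in day 15 GFP cells against controls and 262 in mCherry cells against controls. DESeq2 and the joint fit each called 2 members higher against controls, Ccnd2 and Ccnd3 (adjusted p = 0.0300 and 0.0371).

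Leaving out 1 tumour or library gave 1 to 2 members higher and 0 to 4 lower on day 7, with 1156 (without tumour 3) to 4558 (without tumour 4) genes called, and 1 to 2 higher and 1 to 2 lower on day 15, with 1736 to 2546 genes. Without day 7 tumour 4, Ccnd1, Cdk2, Cdk4 (adjusted p = 0.0464) and Cdkn2c were called lower and Ccnd3 higher (adjusted p = 0.0203), and none of Ccnd1, Cdk2, Cdk4 and Ccnd3 was called without tumour 2 or without tumour 3 (adjusted p 0.213 to 0.899). Without day 15 tumour 3, Ccnd3 was not called (adjusted p = 0.106). The difference between the days ranged over 3 to 126 genes, GFP cells against controls over 287 (without GFP library 1) to 2093 (without control 4) and mCherry cells against controls over 0 to 7. Near 0, some log2 fold changes changed sign when 1 tumour or library was left out, none of them called. On day 7 these were Cdk6 (−0.03296 to 0.05773) and Rb1 (−0.06294 to 0.09568), and on day 15 Cdk4 (−0.1116 to 0.003559). Between the days they were Ccnd1 (−0.3985 to 0.09342), Ccnd3 (−0.008465 to 0.09082) and Cdkn2c (−0.05635 to 0.1157). In day 15 GFP cells against controls they were Cdk4 (−0.09371 to 0.008645) and Cdk6 (−0.09976 to 0.04646), and in mCherry cells against controls Cdk4 (−0.04832 to 0.04343), Cdkn1b (−0.01209 to 0.08591) and Rb1 (−0.0882 to 0.04725).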
